A study of Mus musculus with 4 samples.

Results

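Lamc1 encodes the gamma 1 chain of laminin, and its transcript carried 82 CLIP-seq peaks, 33 of SRSF1 and 49 of SRSF2, out of 107319 peaks in both lists. The members are the peaks that the authors named for the Lamc1 transcript NM_010683, all on the minus strand of chromosome 1 between 155066140 and 155179497 of the mouse build mm9. CLIP-seq crosslinks a protein to RNA with ultraviolet light, precipitates it and sequences the attached RNA fragments, and a peak is a short stretch where such fragments pile up. The cells were mouse embryonic fibroblasts (MEFs), connective tissue cells cultured from embryos, from tetracycline-repressible lines grown in the absence of the drug. SRSF1 was precipitated from the SRSF1 line and SRSF2 from the SRSF2 line, in both cases with an anti-HA antibody, so protein and cell line go together and cannot be told apart. Nothing read here says whether either line is a single clone. The series holds 4 samples, and the SRSF1 libraries from cells given siRNA (control, or against SRSF2) were not analysed here. With 1 library per protein there is no replicate error, the intervals below cover counting error only, and no p-value was computed.

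Laminins are cross-shaped proteins made of an alpha, a beta and a gamma chain, which cells secrete into the basement membrane, the thin sheet of matrix under epithelia and around muscle, fat and vessels. The gamma 1 chain is part of most laminins and holds the site that binds nidogen, a linker to the collagen IV network. Both SR proteins, named for their stretches of serine and arginine, recognise short RNA motifs, many of them in exons, and help the splicing machinery find those exons. In the GRCm38 annotation (GENCODE M21) the full-length Lamc1 transcript has 28 exons with a spliced length of 7622 nt, 6.69% of a transcribed length of 113865 nt, and its first intron alone has 69433 nt. That annotation is of another build, so no Lamc1 peak was assigned to an exon, an intron or an untranslated region.

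Lamc1 was among the genes with most peaks of both proteins. It was chosen by its number of peaks in these lists, and its peak numbers, positions, scores and overlaps are given as a description with no test. Among genes with a symbol it ranked 10 of 1804 by SRSF1 peaks and 6 of 1773 by SRSF2 peaks, where the median gene had 2 and 3. Among all genic host units, which include clusters that the authors left without a gene name, it ranked 140 of 7594 and 56 of 7447. SRSF1 made up 40.2% of the Lamc1 peaks (33 of 82, exact 95% binomial interval 29.6 to 51.7), an interval that includes the 47.5% over all peaks and the 46.8% over chromosome 1. Such an interval left out the overall share in 4.92% of the 528 genes with a symbol and at least 10 peaks. By the Lamc1 interval, which treats peaks as independent, the excess of SRSF2 peaks was not beyond counting error. Among the 293 genic units with at least 50 peaks and both proteins, the SRSF1 share was higher than on Lamc1 in 252 and lower in 40, with a first quartile of 43.1%. In nucleotides the proteins were closer, with 842 nt under SRSF1 peaks and 961 nt under SRSF2 peaks, because SRSF1 peaks on Lamc1 had a median width of 24 nt and SRSF2 peaks of 20 nt. Over all peaks the median width was 19 nt in both lists.

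The peaks of both proteins were split between the far 5′ end of the locus and its 3′ part, with a long empty stretch between them. At the 5′ side, 8 peaks lay within 241 nt (155179257 to 155179497). Then came 69466 nt without a peak of either protein (155109791 to 155179256), 61.3% of the 113 kb from the first to the last peak. The other 74 peaks, 30 of SRSF1 and 44 of SRSF2, lay within the following 43651 nt. With the span cut into 10 equal parts, part 8 from the 5′ side held 10 SRSF1 peaks (30.3%) and 17 SRSF2 peaks (34.7%). Part 9 held 9 (27.3%) and 10 (20.4%), and the last part 9 (27.3%) and 14 (28.6%). The median SRSF1 and SRSF2 peaks lay 93.0 kb and 89.7 kb from the 5′ edge. Each list showed the empty stretch on its own, 69540 nt long for SRSF1 and 69467 nt for SRSF2. The first intron of the GRCm38 annotation has nearly the same length, 69433 nt, and also comes first along the gene, but its position on mm9 was not determined. Among 293 genic units with at least 50 peaks and both proteins, the longest empty stretch took a larger share of the span in 4 and a smaller share in 288, with a median of 20.6%. The next longest empty stretches of Lamc1 were much shorter, 7237 nt (155102448 to 155109684) and 4621 nt (155081773 to 155086393). Peak numbers in the names rise with the coordinate, and none is missing across the longest stretch in either list, while 1 SRSF2 number is missing around the stretch of 7237 nt.

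**Figure D1:**
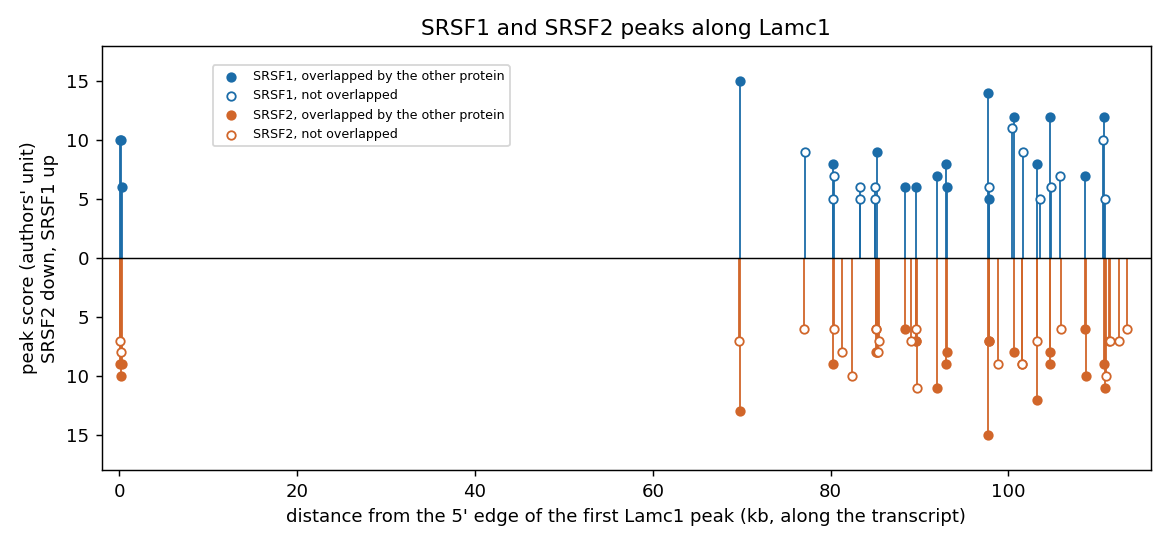
Score of each Lamc1 peak (vertical axis, in the authors' unit, SRSF1 upwards and SRSF2 downwards) against its distance in kb from the 5′ edge of the first peak, along the transcript. Filled points are peaks overlapped by the other protein and open points are not; 8 peaks sit at the 5′ end, and the other 74 follow after 69.5 kb without a peak.

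The 5′ group had more peaks than any other group of Lamc1 peaks joined at gaps of at most 100 nt, with 3 of SRSF1 and 5 of SRSF2 in 241 nt. All 3 SRSF1 peaks of the 5′ group met an SRSF2 peak. At 155179352 both peaks began on the same base, and they ended at 155179376 for SRSF1 and 155179374 for SRSF2, each with a score of 10. At the upper edge both ended on the same base, 155179497, with the SRSF1 peak starting at 155179454 (score 10) and the SRSF2 peak at 155179478 (score 9). The third pair was shifted by 1 nt, 155179257 to 155179275 for SRSF1 (score 6) and 155179258 to 155179276 for SRSF2 (score 9). The 2 SRSF2 peaks without a partner lay between these pairs, at 155179322 to 155179344 (score 8) and 155179385 to 155179414 (score 7), 31 nt and 35.5 nt from the nearest SRSF1 midpoint. The unit of the authors' score is unknown, and scores are read within a list.

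In the 3′ part the peaks formed short groups set apart by empty stretches, and most groups had both proteins. With peaks joined where the gap was at most 100 nt, the whole gene had 29 groups: 18 with both proteins, 8 with SRSF2 alone and 3 with SRSF1 alone. The median group was 52 nt long and held 2 peaks, and all groups together covered 2339 nt, 2.06% of the span. Groups with both proteins held 29 of the 33 SRSF1 peaks and 41 of the 49 SRSF2 peaks. Groups were formed on Lamc1 only, so these counts have no value over all peaks beside them and may not be particular to Lamc1. SRSF2 had more peaks than SRSF1 in 8 of these 18 groups, fewer in 1, and the same number in 9. The groups with most peaks, after the 5′ group with 8, were those at 155081632 to 155081772 and at 155068487 to 155068833, each with 3 peaks of each protein. A further 4 groups had 5 peaks, among them 155089809 to 155089900 and 155094071 to 155094259, each with 1 SRSF1 peak among 4 of SRSF2. In the latter the only overlap was at 155094213 to 155094234, where the SRSF1 peak began 1 base before the SRSF2 peak and both ended on the same base.

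**Figure D2:**
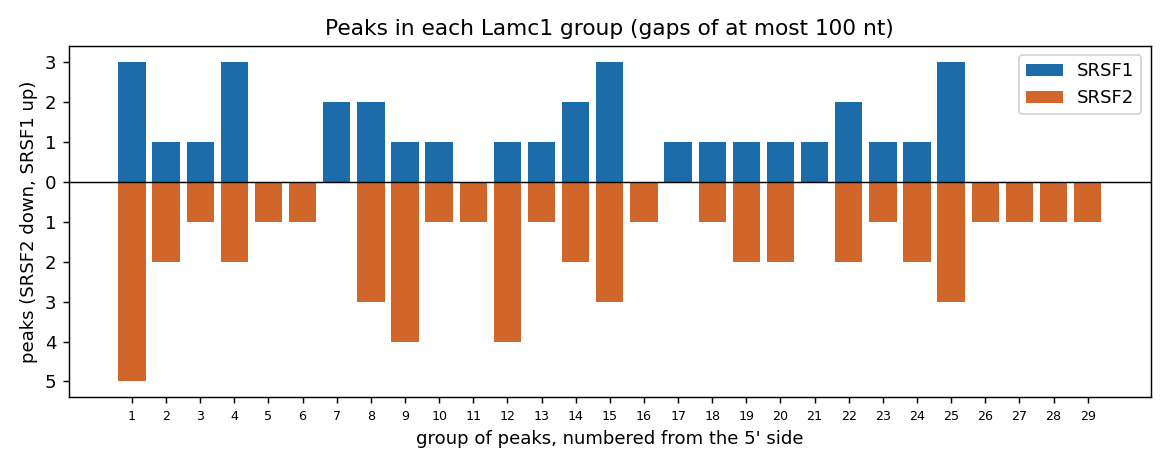
Number of SRSF1 peaks (upwards) and SRSF2 peaks (downwards) in each of the 29 groups of Lamc1 peaks, numbered from the 5′ side; peaks were joined where the gap was at most 100 nt. Group 1 has 3 SRSF1 and 5 SRSF2 peaks, and the last 4 groups hold 1 SRSF2 peak each.

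The 2 sites with the highest scores were the same in both lists. The top SRSF1 peak of Lamc1 was at 155109685 to 155109716 with a score of 15, and the SRSF2 peak inside it, 155109688 to 155109711, had the second highest SRSF2 score, 13. Its midpoints were 1 nt apart, and it belongs to the first group after the empty stretch. The top SRSF2 peak was at 155081748 to 155081772 with a score of 15, and the SRSF1 peak there, 155081749 to 155081772, had the second highest SRSF1 score, 14. Within the whole lists these were high but not extreme values: the SRSF1 scores of 15 and 14 stood at percentiles 90.7 and 88.6, and the SRSF2 scores of 15 and 13 at percentiles 87.9 and 81.7. Next in the SRSF1 list came 3 peaks with a score of 12, at 155068645 to 155068706, at 155074751 to 155074793 and at 155078863 to 155078907. The first of them was the widest Lamc1 peak, with 62 nt, and met 2 SRSF2 peaks (155068633 to 155068673, score 11, and 155068689 to 155068708, score 9). In the SRSF2 list a peak at 155076231 to 155076252 had a score of 12, and it ended on the same base as an SRSF1 peak that started at 155076223 and had a score of 8. SRSF2 also had scores of 11 at 155087520 to 155087549, on an SRSF1 peak with a score of 7, and at 155089809 to 155089831, which met no SRSF1 peak. Ranked by the smaller of both scores, the pairs after the top 2 sites were 155068645 to 155068706 with its first partner, 155179352 to 155179376, and the 3 pairs tied at a smaller score of 9. This ranking sets scores of the 2 lists against each other, although their scales may differ.

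**Figure D3:**
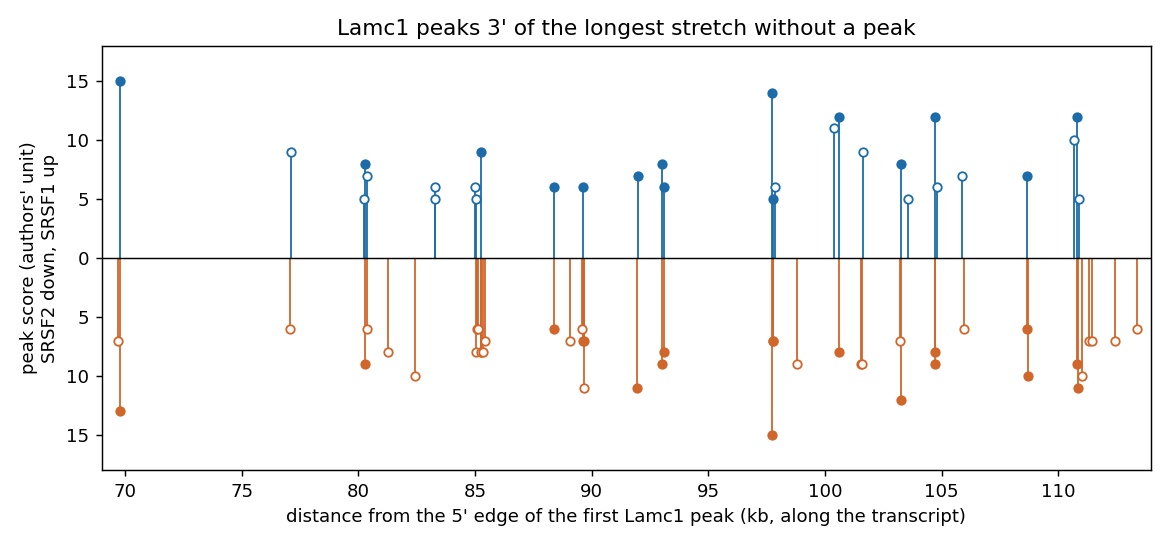
Enlarged view of the Lamc1 peaks that follow the empty stretch, with score (authors' unit, SRSF1 upwards, SRSF2 downwards) against distance in kb from the 5′ edge of the first peak; filled points are overlapped by the other protein. The highest scores of both lists stand at the same 2 sites, with SRSF1 scores of 15 and 14 and SRSF2 scores of 13 and 15.

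About as many Lamc1 peaks of each protein lay on a peak of the other as missed one. Of the SRSF1 peaks 18 of 33 (54.5%, interval 36.4 to 71.9) shared at least 1 nt with an SRSF2 peak on the same strand, against 38.7% over all SRSF1 peaks. Of the SRSF2 peaks 23 of 49 (46.9%, 32.5 to 61.7) were overlapped, against 35.2% over all SRSF2 peaks. Both intervals include the value over all peaks. Among the 293 genic units with at least 50 peaks, the Lamc1 shares were near the medians of 54.3% and 48.6%. The overlaps formed 23 pairs, because 5 SRSF1 peaks met 2 SRSF2 peaks each. In 14 pairs 1 peak lay wholly inside the other, in 18 the midpoints were within 10 nt, and in 6 the peaks had a start or an end in common. No pair had both ends in common, and the median midpoint distance was 4 nt. Along the transcript the SRSF2 midpoint was downstream of the SRSF1 midpoint in 10 pairs and upstream in 13. These features were not measured for pairs outside Lamc1, and short peaks that overlap have close midpoints in any case. In nucleotides, 394 nt lay under peaks of both proteins, 46.8% of the SRSF1 and 41.0% of the SRSF2 footprint.

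**Figure D4:**
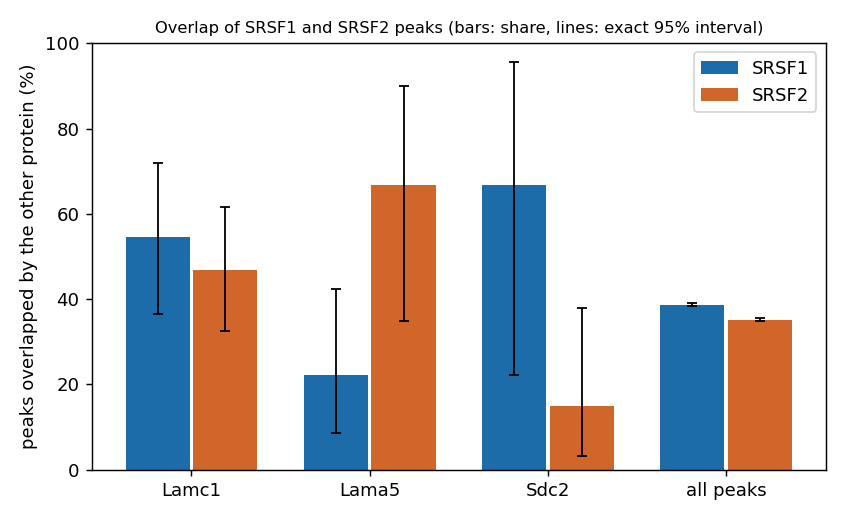
Percent of SRSF1 and SRSF2 peaks overlapped by at least 1 nt of a peak of the other protein, for Lamc1, 2 other genes of the basement membrane list and all peaks; bars are shares and lines exact 95% binomial intervals. On Lamc1 the shares are 54.5% and 46.9%, with intervals that reach the shares over all peaks.

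Most Lamc1 peaks, overlapped ones included, had a midpoint of the other protein close by. An SRSF2 midpoint lay within 50 nt of 23 SRSF1 peaks (69.7%, interval 51.3 to 84.4, against 48.6% over all peaks), and an SRSF1 midpoint within 50 nt of 33 SRSF2 peaks (67.3%, 52.5 to 80.1, against 45.5%). These intervals lie above the values over all peaks, but neighbouring peaks are not independent. Units with many peaks had higher values as a rule: among those with at least 50 peaks the medians were 68.2% and 62.5%, and Lamc1 was exceeded by 140 and 115 of 293 units. Within 100 nt the Lamc1 shares were 84.8% and 79.6%, against 54.7% and 52.1% over all peaks, and within 500 nt they were 93.9% and 85.7%, against 64.4% and 62.5%. Of the Lamc1 peaks without an overlap, 5 of 15 SRSF1 peaks (33.3%, 11.8 to 61.6) and 10 of 26 SRSF2 peaks (38.5%, 20.2 to 59.4) had one within 50 nt, against 16.2% and 15.9% of such peaks in the whole lists. These shares, and those within 100 and 500 nt, were not compared with units of at least 50 peaks. They may therefore not be particular to Lamc1. Side by side arrangements without overlap made up 4 of the 18 groups with both proteins. At 155077858 to 155077979 an SRSF1 peak (score 9) had 2 SRSF2 peaks on its 5′ side (score 9 each), the nearer with its midpoint 52 nt away. At 155094374 to 155094526 2 SRSF1 peaks (scores 5 and 6) lay on the 5′ side of 3 SRSF2 peaks (scores 6, 6 and 8). The others were a pair at 155102379 to 155102447, with midpoints 49.5 nt apart, and a pair at 155073532 to 155073642, 93.5 nt apart.

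Overlapped peaks of Lamc1 had higher median scores and widths than the rest. Overlapped SRSF1 peaks had a median score of 8 (range 5 to 15) and a median width of 28.5 nt, and the others a score of 6 (5 to 11) and a width of 21 nt. Overlapped SRSF2 peaks had a median score of 9 (6 to 15) and a width of 22 nt, and the others 7 (6 to 11) and 19 nt. The ranges overlap widely in both lists. Of the 9 SRSF1 peaks with a score of at least 10, 7 were overlapped (77.8%, interval 40.0 to 97.2), against 11 of the 24 with a lower score (45.8%, 25.6 to 67.2). For SRSF2 it was 7 of 10 (70.0%, 34.8 to 93.3) against 16 of 39 (41.0%, 25.6 to 57.9). The intervals overlap. Over all peaks the same split gave 59.3% and 29.0% for SRSF1, and 51.7% and 24.5% for SRSF2. Width can itself raise the chance of an overlap. Its part in these shares, and in the overlap shares set against all peaks, was not tested. In level, Lamc1 scores were like those of the lists as a whole: 45.5% of its SRSF1 peaks (28.1 to 63.6) and 57.1% of its SRSF2 peaks (42.2 to 71.2) had at least the list median of 8, against 51.6% and 60.5% over all peaks.

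**Figure D5:**
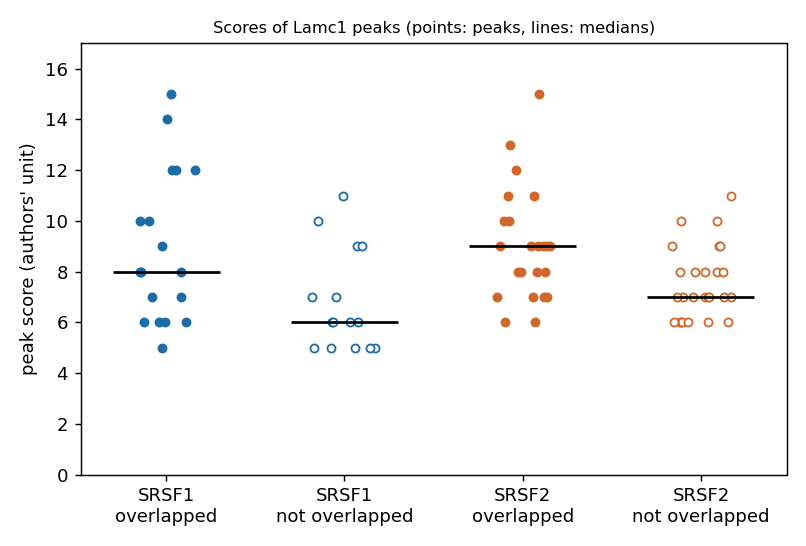
Authors' score of each Lamc1 peak by protein and by whether the other protein overlapped it; each point is a peak, shifted sideways at random, and lines are medians. Medians are 8 and 6 for overlapped and other SRSF1 peaks and 9 and 7 for SRSF2, with wide overlap between the groups.

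Of the 11 groups with 1 protein, 8 were of SRSF2 and 3 of SRSF1, and several of the former lay at the 3′ end. The last 5 SRSF2 peaks, from 155066140 to 155068510, lay beyond the 3′-most listed SRSF1 peak, which started at 155068611. Their scores ran from 6 to 10, and 4 of them stood alone, at 155066140 to 155066147, 155067043 to 155067060, 155068047 to 155068063 and 155068174 to 155068184. The SRSF1 list begins with number 2 on Lamc1. Number 1 is thus not listed for SRSF1. The lists do not show whether a peak had that number, or whether it lay among these SRSF2 peaks. In all, 7 of 40 SRSF1 numbers and 11 of 60 SRSF2 numbers were not listed. The other groups with SRSF2 alone were at 155098232 to 155098252 (score 8), 155097068 to 155097090 (score 10), 155090424 to 155090429 (score 7) and 155080665 to 155080688 (score 9). SRSF1 stood alone at 155079118 to 155079140 with a score of 11, at 155075952 to 155075963 with a score of 5, and at 155096188 to 155096208 with 2 peaks of scores 6 and 5. For 8 of these 11 groups an unlisted peak of the other protein may lie there by its missing number, but some share the same number. SRSF1 number 1 is the only one around the 4 lone SRSF2 peaks at the 3′ end. SRSF1 number 31 is the only one around the SRSF2 sites at 155097068 and 155098232. The sources used here do not say what the numbers count or why some are absent. They therefore set no limit on SRSF1 binding at these SRSF2 sites. The remaining 3 groups, with no missing number around them, were the SRSF1 site at 155079118 and the SRSF2 sites at 155080665 and 155090424.

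No peak of another unit lay inside the Lamc1 span, on either strand, in either list. The nearest SRSF2 peak beyond the 5′ side was 55.3 kb away on the plus strand, in a region that the authors called nongenic (155234767 to 155234791), and the nearest SRSF1 peak was 123 kb away on the minus strand (155302644 to 155302667), also called nongenic. Beyond the 3′ side the next peaks were 316 kb (SRSF1) and 318 kb (SRSF2) away, in a cluster without a gene name that had 12 SRSF1 and 15 SRSF2 peaks. The empty stretch of 69.5 kb was thus empty in both lists and on both strands.

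A list of 54 genes for laminins, basement membrane components and their receptors had 6 members with a peak under their own name, Lamc1 included. This is near the background, since 9.75% of the 21900 protein-coding genes of the RefSeq table had such a peak. Genes with a symbol hold only 17058 of the 107319 peaks, so the other 48 cannot be called unbound. Lama5, the laminin alpha 5 chain (chromosome 2, minus strand, 179911676 to 179941505), had 27 peaks of SRSF1 and 12 of SRSF2, so that SRSF1 made up 69.2% (52.4 to 83.0). That interval lies just above the one for Lamc1 (29.6 to 51.7), and the difference between these 2 laminin chains was not tested. On Lama5 6 of 27 SRSF1 peaks were overlapped (22.2%, 8.62 to 42.3) and 8 of 12 SRSF2 peaks (66.7%, 34.9 to 90.1). Sdc2, the cell surface proteoglycan syndecan 2 (chromosome 15, plus strand, 32850576 to 32962301), had 6 SRSF1 and 20 SRSF2 peaks (23.1%, 8.97 to 43.6). Its span of 112 kb was close to that of Lamc1. Sdc4, syndecan 4, had 3 and 1 peaks, Sdc1, syndecan 1, had 1 and 0, and Pomt1, a mannosyltransferase that modifies the laminin receptor dystroglycan, had 2 and 0. Together the 6 genes had an SRSF1 share of 46.8% (38.7 to 55.0), and 54.2% (42.0 to 66.0) without Lamc1. Of 14 fibroblast markers, Col1a1 and Postn had named peaks, as did Krt19 among 5 epithelial markers. None of the 4 endothelial, 4 macrophage and 4 neuronal markers did. Against the 9.75% over all protein-coding genes, lists this short say little about the cells.

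By the pair of peak numbers over the 2 libraries, the genes most like Lamc1 were Usp32, Igf2r, Fam120a, Hsp90b1 and Kntc1. Likeness was the distance between the log2(peaks + 1) values of both proteins. Usp32, a ubiquitin protease, was nearest (distance 0.0722) with 34 SRSF1 and 47 SRSF2 peaks, and Igf2r, the receptor for mannose 6-phosphate, followed (0.121) with 31 and 52. Fam120a, the chaperone gene Hsp90b1 and the kinetochore gene Kntc1 had 30 and 39 each (0.348). The overlap of both proteins took 54.5% of SRSF1 peaks on Lamc1, 54.8% on Igf2r, 60.0% on Fam120a, 63.3% on Kntc1, 67.6% on Usp32 and 90.0% on Hsp90b1. Of SRSF2 peaks it took 46.9% on Lamc1, 40.4% on Igf2r, 43.6% on Kntc1, 51.3% on Fam120a, 53.2% on Usp32 and 74.4% on Hsp90b1. Of these genes only Hsp90b1 lay outside the intervals of Lamc1 (36.4 to 71.9 and 32.5 to 61.7). Its peaks spanned 14.5 kb, and the part of span in its overlap was not tested.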

How the data were processed

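Peak lists of 2 CLIP-seq libraries from MEFs were used, 1 for SRSF1 (50983 peaks) and 1 for SRSF2 (56336). Per the submitters' processing notes coordinates are on mm9; they are given 1-based. Aligner, peak caller and threshold: not given in the sources used here. Scores, as deposited, are whole numbers from 4 upwards with no stated unit, used within a list except for the ranking of pairs and a common threshold. Read depth is unknown. Each list was called on 1 sample, as the authors' files are per sample.

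Peaks were assigned to Lamc1 by the RefSeq accession in their names, with symbols from a RefSeq table of GRCm38.p6. Overlap meant at least 1 nt on the same strand; the function gave the counts of bedtools 2.31.1 and was tested on simulated data. Distances are between midpoints. Shares carry exact (Clopper-Pearson) 95% intervals. Peaks are not independent molecules. No genome of mm9 was used, so no sequence is shown. The gene, the lists and the named sites (highest scores, largest groups, top pairs, longest empty stretches, sites of 1 protein) were chosen with earlier results of these data known; the sites of 1 protein, the side by side groups and the split at a score of 10 were named after their values were seen. Alternatives changed the overlap definition, score threshold, gap and merging. Python 3.11.15 with scipy 1.17.1 was used.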

Additional observations from a re-analysis of the deposited data

How the results depend on the processing

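Of 38 alternatives for 10 results, 31 stayed within the interval of the reported value or within 1.5 times a count, and 7 did not. The 31 include the common threshold of 10 given below. They also include the use of all peaks on the same strand within the span, which were the same peaks as before. Wide intervals make it easy to stay inside, so the tally is no measure of robustness. With a score at or above the list median in both lists, 73.3% of SRSF1 peaks (11 of 15) were overlapped and 11 groups had both proteins, fewer peaks being kept. With a score of at least 2 times the lowest of the unit (10 for SRSF1, 12 for SRSF2), only 9 and 3 peaks remained, which gave an SRSF1 share of 75.0% and overlaps of 22.2% and 66.7%; a common threshold of 10, chosen after seeing the data, gave 47.4%, 44.4% and 40.0%. Of the wider definitions, a midpoint distance of up to 50 nt put the SRSF2 overlap at 67.3%, and a fixed peak width of 50 nt at 65.3%. The number of groups ran from 21 to 34. Read depth and the unit of the score are unknown, and 1 library per protein leaves the replicate spread unmeasured. No paired analysis was possible because each protein has 1 library and the labels carry no replicate numbers.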
